A study of Mus musculus with 6 samples.

Results

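Neurotrophins are secreted growth factors of neurons. The genes described here are 2 neurotrophin genes, 4 genes of neurotrophin receptors and the gene of neudesin, a separate secreted neurotrophic protein: Bdnf (brain-derived neurotrophic factor), Ntf3 (neurotrophin-3), Ntrk2 (the receptor TrkB), Ntrk3 (the receptor TrkC), Ngfr (the p75 neurotrophin receptor), Sort1 (sortilin) and Nenf (neudesin). These 7 of 35976 genes in the count table were chosen by name, and all 7 passed the filter on low counts that left 13159 genes for testing. The cells were labelled as amygdala neurons and enriched magnetically after papain digestion, and the mice were C57BL/6J males whose age the labels do not give. In the sgEgfr group an adeno-associated virus delivered guides against the epidermal growth factor receptor gene, and in the sgRosa group it delivered guides against the Rosa26 control locus. Per the series' design text, Cas9 stood under the astrocyte promoter GfaABC1D in both groups, so the labels place the edit in astrocytes and name neurons as the cells sequenced. All mice, sgRosa included, had over 2 weeks of viral expression and 7 days of restraint, and were then fear conditioned (1 day) and put through extinction (3 days). Each group had 3 libraries made from 5 ng of RNA, and no unstressed group was analysed here.

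Mature brain-derived neurotrophic factor binds TrkB and neurotrophin-3 binds TrkC, and these tyrosine kinases drive survival, dendrite growth and synaptic strengthening. Uncleaved proneurotrophins bind p75 together with sortilin, which can instead weaken synapses or trigger cell death, and sortilin also carries pro-BDNF into the regulated secretory pathway. In the amygdala, signalling by brain-derived neurotrophic factor through TrkB is known for its part in the learning and extinction of fear. Neudesin is a small secreted protein with a cytochrome b5-like haem-binding domain that is unrelated in sequence to the neurotrophins.

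The Bdnf gene lies on chromosome 2 from 109674700 to 109727007 on the plus strand (mm10) and has many alternative first exons, of which RefSeq's GRCm38.p6 promoter table holds 7 start sites. One of the 7 windows, each running from 250 bases before to 50 bases after a start, carried TGACGT, the core of the cyclic AMP response element, at 36 bases before the start. The same window carried TTTCGAG, part of the calcium-response element that the factor CARF binds in the Bdnf promoter, at 69 bases before the start. Searched on both strands, TGACGT was present in 7.51% and TTTCGAG in 1.12% of all 32851 promoter windows. TTTCGAG was also present in the only Ntrk2 window, 28 bases before the start, and in neither Ntf3 window nor the Ngfr window. The table gave no window for Ntrk3, Sort1 or Nenf. The windows of Bdnf and Ntrk2 are shown because the gene of CARF was among the regulators with separated groups described further on. Capitals mark the motif matches on either strand, the pair of motifs was chosen after the windows had been read, and a match describes letters, not binding.
Bdnf, chr2:109692186-109692485, plus strand: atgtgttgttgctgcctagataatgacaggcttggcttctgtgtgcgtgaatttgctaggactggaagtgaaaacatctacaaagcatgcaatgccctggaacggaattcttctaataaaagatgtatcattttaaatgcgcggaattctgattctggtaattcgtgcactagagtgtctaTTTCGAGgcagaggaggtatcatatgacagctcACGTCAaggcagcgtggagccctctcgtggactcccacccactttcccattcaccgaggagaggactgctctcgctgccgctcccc
Ntrk2, chr13:58806319-58806618, plus strand: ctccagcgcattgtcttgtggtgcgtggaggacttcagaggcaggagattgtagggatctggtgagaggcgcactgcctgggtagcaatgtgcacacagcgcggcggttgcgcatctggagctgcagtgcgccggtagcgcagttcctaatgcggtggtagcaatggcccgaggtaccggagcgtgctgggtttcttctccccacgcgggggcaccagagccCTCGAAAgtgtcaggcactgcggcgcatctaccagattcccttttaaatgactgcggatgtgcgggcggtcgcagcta
The counts sum all transcripts of a gene, so they do not tell from which Bdnf start the reads came.

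The libraries held between 2348897 and 10152812 counts, and a floor of 3 counts in a library corresponded to 0.270 to 1.25 CPM (counts scaled to library size, with TMM factors). Egfr itself, the targeted gene, had 1.28, 4.02 and 2.34 CPM in sgEgfr libraries, against 0.281, 10.9 and 2.07 CPM in sgRosa libraries (log2 fold change -0.64, SE 1.01; edgeR adjusted p = 0.917). Since the labels put the edit in astrocytes, its level in neuron-enriched cells does not check it. Pan-neuronal marker genes were well above this floor in all 6 libraries, with a mean of 7.72, 7.24 and 7.96 log2 CPM in sgEgfr replicates 1, 2 and 3, against 6.70, 6.74 and 7.81 log2 CPM in sgRosa replicates 1, 2 and 3. The libraries were mixtures: summed over their lists, oligodendrocyte markers took 22648 to 57947 CPM in sgEgfr and 24623 to 72656 CPM in sgRosa libraries, beside 3067 to 4881 CPM in sgEgfr and 1993 to 4963 CPM in sgRosa libraries for pan-neuronal markers. The oligodendrocyte mean was 9.74, 10.47 and 8.93 log2 CPM in sgEgfr libraries, against 11.35, 10.70 and 9.36 log2 CPM in sgRosa libraries. Choroid plexus markers averaged 6.28 log2 CPM in sgEgfr replicate 1 and 6.50 log2 CPM in sgRosa replicate 3, and at most 1.83 log2 CPM in the other libraries. Mitochondrial genes took 11.5% to 14.9% of counts in sgEgfr and 10.3% to 29.8% in sgRosa libraries, with the highest share in sgRosa replicate 1. In bulk RNA, fewer cells of a type and less RNA per cell cannot be told apart.

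Across all 13159 genes, the quasi-likelihood test of edgeR called 0 genes at a Benjamini-Hochberg adjusted p of 0.05 (0% of those tested), and 811 genes (6.16%) had an unadjusted p under 0.05, Nenf alone among the 7. None of the 7 was called by edgeR or by limma-voom, which called 0 genes. DESeq2 called 33 genes (0.251%), none of them among the 5 of the 7 to which it gave an adjusted p (Ntf3 and Ngfr had none). Nenf was lower in every sgEgfr library than in any sgRosa library, with a log2 fold change of -0.77. Ngfr also lay lower in every sgEgfr library. Bdnf, Ntf3, Ntrk2, Ntrk3 and Sort1 overlapped between the groups. Beside these 2 of 7, the groups of 13.4% of all genes tested did not overlap, 5.8% with sgEgfr higher and 7.6% with sgEgfr lower.

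**Figure D1:**
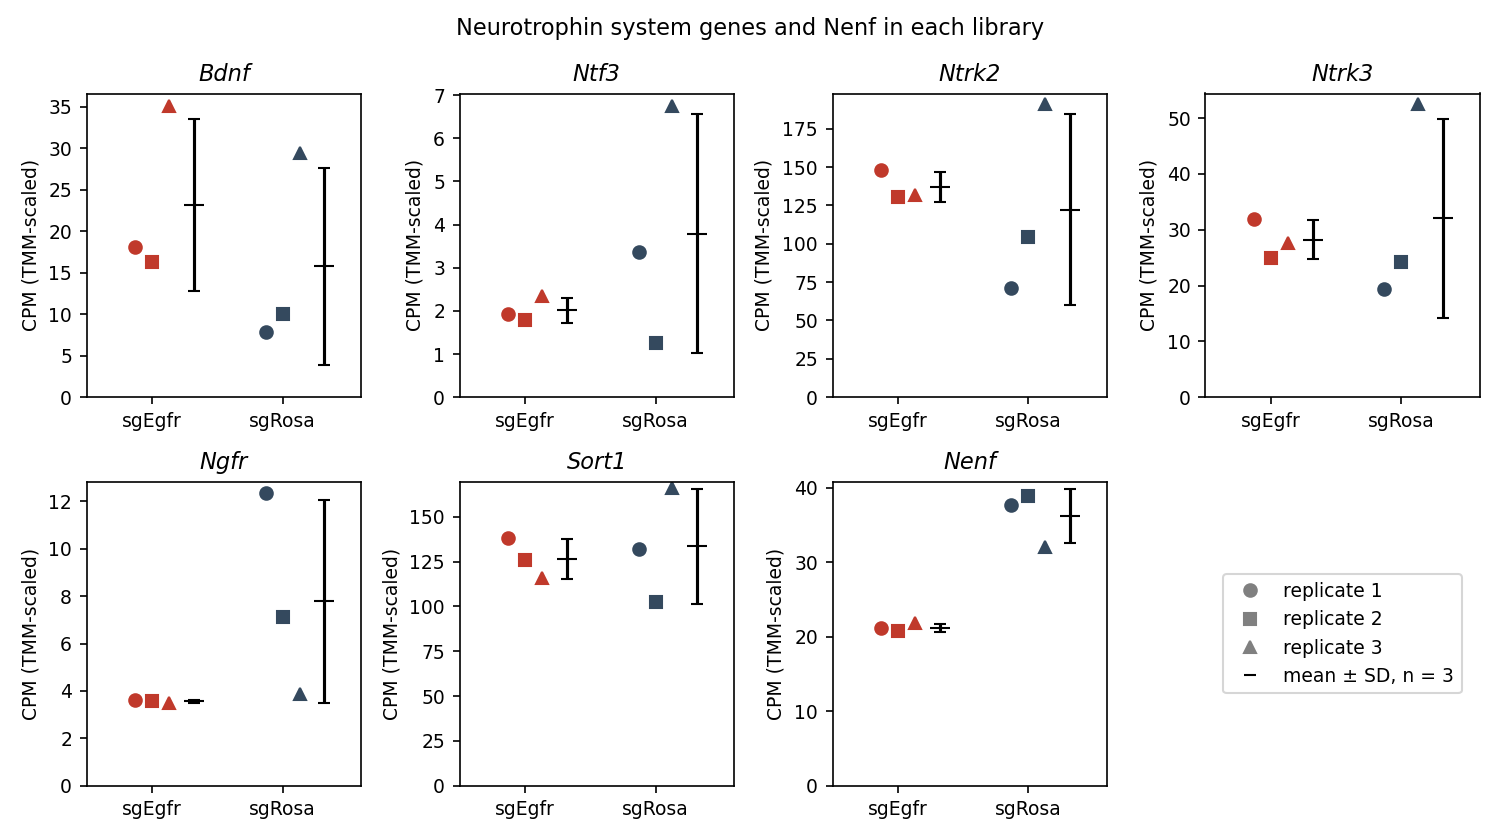
TMM-scaled CPM of the 7 genes in each library (points, shaped by replicate number) with the mean and SD of 3 libraries beside them, sgEgfr left of sgRosa. Nenf and Ngfr are separated between the groups, while Bdnf, Ntf3, Ntrk2 and Ntrk3 have one sgRosa library, replicate 3, far above the other sgRosa libraries.

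Of the ligands, Bdnf had 18.1, 16.3 and 35.1 CPM in sgEgfr replicates 1, 2 and 3, against 7.87, 10.02 and 29.4 CPM in sgRosa replicates 1, 2 and 3. The third library of each group was high, and sgRosa replicates 1 and 2 lay below all sgEgfr libraries. The mean was 23.2 ± 10.4 CPM in sgEgfr and 15.8 ± 11.9 CPM in sgRosa (SD, n = 3 each), where counting error alone would give an SD of 2.53 and 2.04 CPM. The log2 fold change of 0.51 (SE 0.54, 95% interval -0.73 to 1.76) did not exceed the spread between libraries (edgeR unadjusted p = 0.369). Over all genes tested its edgeR adjusted p was 0.869. The interval runs from a fold of 0.601 to 3.38, which includes a 2-fold difference. The log2 fold change was 0.14 without sgEgfr replicate 3. Leaving out sgRosa replicate 1, 2 or 3 gave 0.21, 0.34 or 1.36. Bdnf exons overlap those of Gm45346 on the opposite strand. Whether counting used strand is not stated in these sources, and reads from the overlap may belong to either gene.

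Ntf3 was near the limit of detection, with 9, 8 and 6 counts in sgEgfr libraries, against 12, 3 and 75 counts in sgRosa libraries. In CPM these were 1.92, 1.79 and 2.34 in sgEgfr libraries, against 3.37, 1.25 and 6.75 in sgRosa libraries. The sgEgfr libraries agreed closely, whereas sgRosa replicate 2 was the lowest and sgRosa replicate 3 the highest of all 6. The log2 fold change of -1.04 (SE 0.60) had an edgeR adjusted p of 0.790, and Ntf3 did not pass the filter once sgRosa replicate 3 was left out. Ntf5 (neurotrophin-4) had at most 1.28 CPM in sgEgfr libraries and 0.990 CPM in sgRosa libraries, and did not pass the filter.

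Of the receptors, Ntrk2 had 148, 131 and 132 CPM in sgEgfr libraries, against 71.1, 104 and 191 CPM in sgRosa libraries. The sgEgfr libraries sat inside the range of the sgRosa libraries. The mean was 137 ± 9.89 CPM in sgEgfr and 122 ± 62.1 CPM in sgRosa (SD, n = 3 each), and the log2 fold change was 0.16 (SE 0.36, 95% interval -0.68 to 1.00; edgeR adjusted p = 0.945). TrkB is made by neurons as a full kinase and by astrocytes mostly as a truncated form, and gene counts do not separate the forms. All 10 astrocyte markers passed the filter. Their summed level was 1232, 1701 and 545 CPM in sgEgfr libraries, against 945, 1601 and 901 CPM in sgRosa libraries. The part of astrocyte RNA in the Ntrk2 level was not tested.

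Ntrk3 had 31.99, 25.0 and 27.7 CPM in sgEgfr libraries, against 19.4, 24.2 and 52.5 CPM in sgRosa libraries. As for Ntrk2, sgRosa replicate 3 was the highest of all libraries and sgRosa replicate 1 the lowest. Its log2 fold change was -0.19 (SE 0.38; edgeR adjusted p = 0.930), and it was 0.37 without sgRosa replicate 3. Ntrk2 and Ntrk3 had the most alike profiles among all pairs of the 7 genes, with a root mean square difference of 0.19 log2 CPM over the 6 libraries after each gene was centred on its mean. Within a library, 463, 522 and 476 Ntrk2 reads stood beside each 100 Ntrk3 reads in sgEgfr libraries, against 367, 431 and 365 in sgRosa libraries. That ratio does not depend on the scaling of the libraries, and its lowest sgEgfr value exceeded its highest sgRosa value. The log2 ratio differed by 0.33 (2.28 ± 0.0906 in sgEgfr and 1.94 ± 0.134 in sgRosa; SD, n = 3 each; exact two-sided permutation p = 0.1, the smallest that 3 against 3 libraries allow, and 0.2 adjusted over the 4 ratios compared).

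Ngfr had 17, 16 and 9 counts in sgEgfr libraries, against 44, 17 and 43 counts in sgRosa libraries. These corresponded to 3.63, 3.57 and 3.51 CPM in sgEgfr libraries, against 12.4, 7.10 and 3.87 CPM in sgRosa libraries. The groups did not overlap, but the lowest sgRosa library, replicate 3, exceeded the highest sgEgfr library by less than the counting SD of 0.991 CPM in sgEgfr libraries. The log2 fold change was -1.09 (SE 0.48, 95% interval -2.20 to 0.0216; edgeR adjusted p = 0.781), and it was -0.52 without sgRosa replicate 1 and -1.46 without sgRosa replicate 3. In the adult forebrain p75 is best known from cholinergic neurons, and it is also made by cells of the vessel wall. Of 6 cholinergic markers 1 passed the filter. Their summed level was 1.71, 6.69 and 1.56 CPM in sgEgfr libraries, against 10.97, 24.6 and 0.900 CPM in sgRosa libraries. Within sgRosa both this sum and Ngfr were lowest in replicate 3, but the sum peaked in replicate 2 and Ngfr in replicate 1. The choline acetyltransferase gene Chat was at 0 in sgEgfr replicate 3 and in sgRosa replicates 2 and 3. In sgRosa replicate 2 the marker Gbx1 was at 0 too, but Isl1 had 12.9, Slc5a7 6.27, Lhx8 2.92 and Slc18a3 2.51 CPM. All 7 pericyte and mural markers passed. Their summed level was 699, 417 and 312 CPM in sgEgfr libraries, against 1166, 391 and 230 CPM in sgRosa libraries. The part of these cells in the Ngfr level was not tested.

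Sort1 was the steadiest of the 7 in sgRosa after Nenf, with 138, 126 and 116 CPM in sgEgfr libraries, against 132, 102 and 166 CPM in sgRosa libraries. The groups overlapped, and the log2 fold change was -0.0796 (SE 0.25, 95% interval -0.66 to 0.50; edgeR adjusted p = 0.957). The interval excludes a fold below 0.631 or above 1.42. Sort1 exons overlap those of Gm12523 on the opposite strand. None of the other Vps10p-domain sorting receptors was called: the log2 fold change was 0.11 for Sorl1, which sorts the amyloid precursor protein, 0.18 for Sorcs1, 0.0633 for Sorcs2, a co-receptor of p75, and 0.16 for Sorcs3. Their groups overlapped too, and the median of the 5 genes was 0.11, against -0.0382 over all genes tested. That direction turned in 3 alternatives, each with 1 of the 5 genes positive: the median was -0.23 with the pan-neuronal covariate, -0.15 with the oligodendrocyte covariate and -0.0254 without sgRosa replicate 1. Per 100 Sort1 reads of the same library there were 13.1, 12.9 and 30.3 Bdnf reads in sgEgfr libraries, against 5.96, 9.80 and 17.7 in sgRosa libraries, and the difference in log2 ratio of 0.76 did not pass (exact two-sided permutation p = 0.4). It was 0.36 without sgEgfr replicate 3, and 0.38 without sgRosa replicate 1 or 1.16 without sgRosa replicate 3. Bdnf reads per 100 Ntrk2 reads were 12.2, 12.5 and 26.6 in sgEgfr libraries, against 11.1, 9.60 and 15.4 in sgRosa libraries, with a difference in log2 ratio of 0.43 (exact two-sided permutation p = 0.4), which was 0.0597 without sgEgfr replicate 3 and 0.29 without sgRosa replicate 2.

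Nenf (chromosome 1, 191306789 to 191318194, minus strand, mm10; a gene of 4 exons and 742 exonic bases) had 21.1, 20.8 and 21.8 CPM in sgEgfr libraries, against 37.7, 38.8 and 32.04 CPM in sgRosa libraries. The sgEgfr libraries were nearly level, and each lay below every sgRosa library. The mean was 21.2 ± 0.544 CPM in sgEgfr and 36.2 ± 3.64 CPM in sgRosa (SD, n = 3 each). The log2 fold change was -0.77 (SE 0.20, 95% interval -1.24 to -0.29), a level 41.2% lower. Nenf ranked 53 of 13159 genes by p, but its edgeR adjusted p over all genes was 0.781, and it was 0.386 by DESeq2 and 0.250 by limma-voom. Nenf was known from an earlier pass over these data as one of the lower genes with the smallest p, so its rank and its separation are a description and not independent evidence. It lay between -0.85 and -0.69 with each library left out, at -0.68 once the pan-neuronal mean was a covariate and at -0.71 once the oligodendrocyte mean was. Per 100 Sort1 reads there were 15.3, 16.5 and 18.9 Nenf reads in sgEgfr libraries, against 28.5, 38.0 and 19.3 in sgRosa libraries. The log2 ratio differed by -0.71 with no overlap between the groups, although sgEgfr replicate 3 and sgRosa replicate 3 were nearly level (exact two-sided permutation p = 0.1, the smallest possible, and 0.2 adjusted over the 4 ratios). With a pseudocount of 2 in place of 0.5 the exact permutation p was 0.2.

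Neudesin belongs to the membrane-associated progesterone receptor family of haem-binding proteins, of which 4 genes were tested. Cyb5d2 (neuferricin), also an extracellular haem-binding protein, had 7.25, 6.92 and 5.46 CPM in sgEgfr libraries, against 15.5, 12.5 and 9.90 CPM in sgRosa libraries, again without overlap. Its log2 fold change was -0.93 (SE 0.30; edgeR adjusted p = 0.781). The membrane-bound members Pgrmc1 (-0.34, SE 0.31) and Pgrmc2 (0.31, SE 0.22) overlapped between the groups and were not called either.

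**Figure D2:**
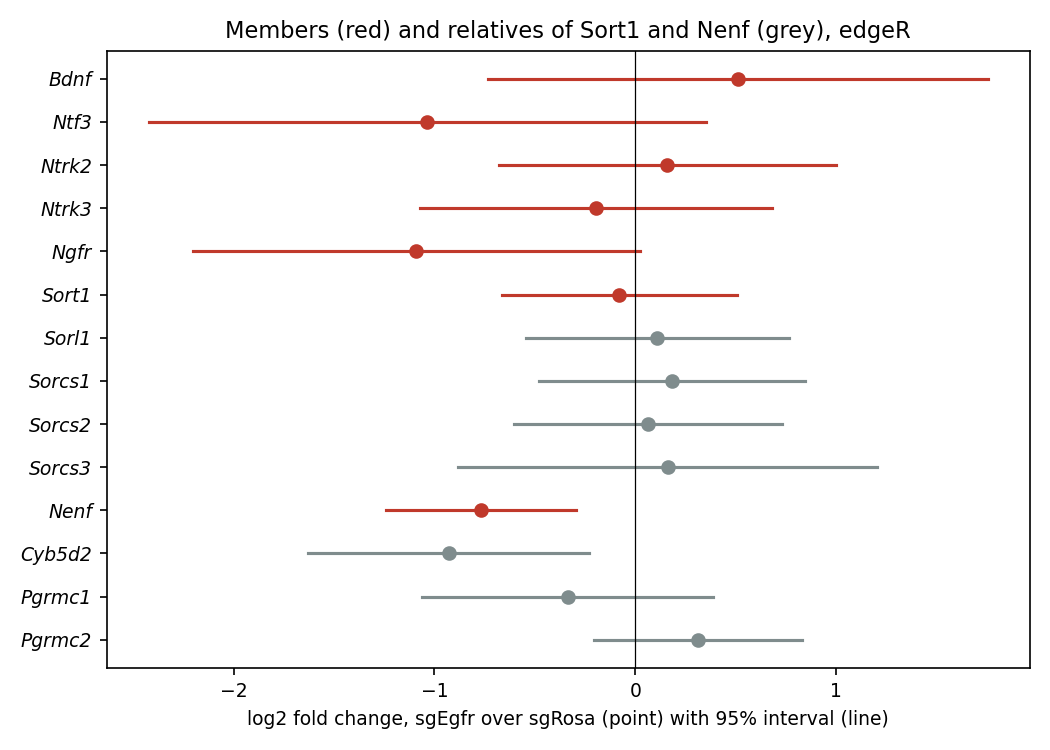
Log2 fold changes of sgEgfr over sgRosa (points) with 95% intervals (lines) for the 7 genes in red and the relatives of Sort1 and Nenf in grey. The intervals of Nenf (-1.24 to -0.29) and Cyb5d2 lie below 0 before adjustment over all genes; the others include 0.

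Levels of different genes can be compared only per length. In CPM per kilobase of merged exons, averaged over the 6 libraries, the order was Nenf (38.7 ± 11.5, SD, n = 6), Sort1 (17.2 ± 2.88), Ntrk2 (6.72 ± 2.10), Bdnf (3.13 ± 1.73), Ntf3 (1.69 ± 1.18), Ngfr (1.65 ± 1.03) and Ntrk3 (0.999 ± 0.388). These SDs take both groups together, so they also hold any difference between the groups. By group Nenf was at 28.6 ± 0.733 in sgEgfr and 48.8 ± 4.90 CPM per kilobase in sgRosa (SD, n = 3 each). Nenf exceeded Sort1, Sort1 exceeded Ntrk2 and Ntrk2 exceeded Bdnf in 6 of 6 libraries. Bdnf exceeded Ntf3 in 5 libraries, Ntf3 exceeded Ngfr in 4 and Ngfr exceeded Ntrk3 in 4, so the order of the last neighbours changed between libraries. Ntrk2 and Ntrk3 have exons used by some transcripts only, and with the longest coding transcript as length Ntrk2 was at 14.8 and Ntrk3 at 1.53 CPM per kilobase, with the same order of the means, although Ngfr then exceeded Ntrk3 in only 2 libraries.

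The 7 genes followed the libraries in different ways. Bdnf, Ntrk2 and Ntrk3 were lowest in sgRosa replicates 1 and 2, the libraries with the lowest pan-neuronal and excitatory marker means, and high in sgRosa replicate 3. The excitatory marker mean was 6.23, 5.49 and 6.40 log2 CPM in sgEgfr libraries, against 4.18, 4.44 and 6.33 log2 CPM in sgRosa libraries. With the pan-neuronal mean as a covariate the log2 fold change was -0.12 for Bdnf, -0.17 for Ntrk2 and -0.58 for Ntrk3. Ngfr and Nenf ran the other way within sgRosa, lowest in replicate 3, and their log2 fold changes with that covariate were -0.46 and -0.68. Inhibitory neuron markers, of which 8 of 10 passed the filter, moved in the same sense as Ngfr and Nenf, with a mean of 2.11, 2.501 and 2.43 log2 CPM in sgEgfr libraries, against 3.64, 3.73 and 2.32 log2 CPM in sgRosa libraries. Their summed level was 58.4 to 99.7 CPM in sgEgfr libraries and 80.02 to 242 CPM in sgRosa libraries, and no marker of the list was at 0 in all libraries. Oligodendrocyte markers were lowest in replicate 3 within sgRosa too, at 11.35, 10.70 and 9.36 log2 CPM, against 9.74, 10.47 and 8.93 log2 CPM in sgEgfr libraries. With the oligodendrocyte mean as a covariate the log2 fold change was -0.56 for Ngfr and -0.71 for Nenf. The part of inhibitory neurons or oligodendrocytes in the Ngfr and Nenf levels was not tested. The SD of log2 CPM among the 3 libraries was smaller in sgEgfr than in sgRosa for all 7 genes. It ran from 0.0215 (Ngfr) to 0.59 (Bdnf) in sgEgfr and from 0.15 (Nenf) to 1.05 (Ntf3) in sgRosa. The sgRosa libraries also differed more from one another across genes. Their pairs had a chi-square per degree of freedom of 30.9 to 149, against 10.04 to 22.6 in sgEgfr, a measure that also grows with depth. The share of all genes with the smaller SD in sgEgfr was not computed. For Ngfr, Ntf3 and Nenf the sgEgfr spread was below what counting error gives on average, and 3 libraries give only a rough SD.

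**Figure D3:**
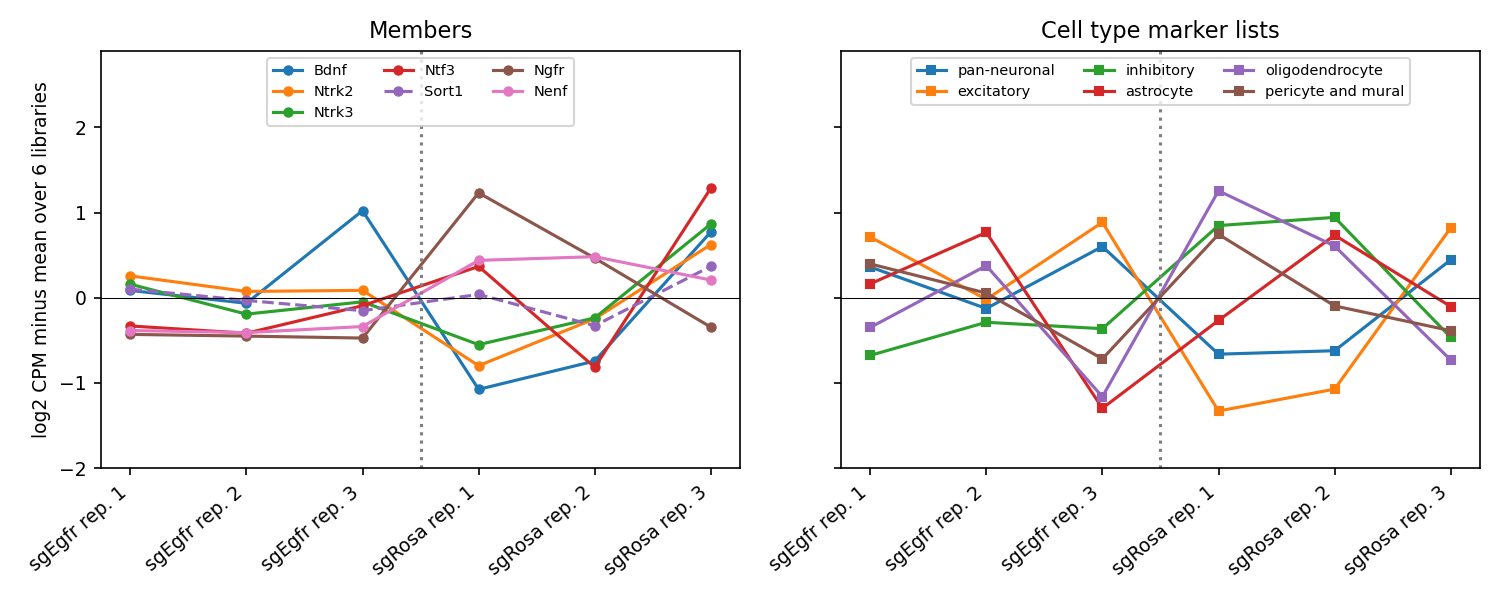
Log2 CPM of the 7 genes (left) and mean log2 CPM of 6 cell type marker lists (right), each minus its mean over the 6 libraries, with sgEgfr libraries left of the dotted line. Lines join the values of one gene or list and imply no order of replicates. Bdnf, Ntrk2 and Ntrk3 are low where the excitatory list is low, in sgRosa replicates 1 and 2, while Ngfr and Nenf are high there.

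The genes whose centred profiles lay nearest to each member, among 9927 or 9928 genes with a mean of at least 3 log2 CPM, were set by root mean square difference over the 6 libraries. For Bdnf these were the ephrin receptor gene Epha5 (0.0749 log2 CPM), the GABA-A receptor subunit gene Gabra2 (0.0912) and the calcium channel gene Cacna1d (0.11), against a median of 0.80 over all genes compared. For Ntrk2 they were Mtmr12 (0.0224), Ap3s1 and Plxnc1, and for Ntrk3 they were Zfp423 (0.0828), Dtnb and Klhl26. For Nenf they were Qpctl (0.0481), Get4 and Siva1, whose log2 fold changes of -0.80, -0.65 and -0.67 were not called. For Ngfr they were Gas5 (0.10), Coro1b and Ech1, for Sort1 Ufc1 (0.0462), AW209491 and Med10, and for Ntf3, at its few counts, no gene was nearer than Crym (0.22). The nearest genes were picked for their likeness, so the values only describe them.

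The wider pathway was read from 9 lists of 90 genes, of which 77 were tested, and 0 of them were called in either direction. Of the 70 tested genes outside the set of 7, 49 had positive and 21 negative log2 fold changes, with a median of 0.12. Over all genes tested 46.3% were positive, with a median of -0.0382, and the same share stands beside each list below. The groups of 8 of these 70 did not overlap, 6 higher and 2 lower in sgEgfr, beside 5.8% higher and 7.6% lower among all genes tested.

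Among 12 regulators of Bdnf transcription 10 had positive log2 fold changes (median 0.0810), beside 46.3% of all genes tested. With the pan-neuronal covariate 6 of the 12 were positive. The groups of 2 of the 12 were separated, beside 13.4% of all genes tested. Carf, which encodes the calcium-response factor whose motif was searched for above, had 87.2, 74.1 and 116 CPM in sgEgfr libraries, against 26.4, 48.9 and 45.1 CPM in sgRosa libraries. All sgEgfr libraries were above all sgRosa libraries, and the log2 fold change was 1.20 (SE 0.30; edgeR adjusted p = 0.781, DESeq2 adjusted p = 0.0778), between 0.99 and 1.41 with libraries left out. Crebbp, a histone acetyltransferase and coactivator of CREB, had 458, 387 and 442 CPM in sgEgfr libraries, against 300.3, 282 and 240.3 CPM in sgRosa libraries (log2 fold change 0.65, SE 0.25; edgeR adjusted p = 0.781). Npas4, an activity-induced transcription factor, had 2.99, 8.26 and 5.46 CPM in sgEgfr libraries, against 0.562, 28.0 and 11.9 CPM in sgRosa libraries, with wide overlap.

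Among 18 adaptors and first effectors of Trk receptors 13 had positive log2 fold changes (median 0.17), beside 46.3% of all genes tested. The groups of 1 of the 18 were separated, beside 13.4% of all genes tested. Crk, an SH2 and SH3 adaptor, had 154, 165 and 154 CPM in sgEgfr libraries, against 97.0, 109 and 151 CPM in sgRosa libraries, without overlap (log2 fold change 0.41, SE 0.25, edgeR adjusted p = 0.798). The highest sgRosa library lay below the lowest sgEgfr library by less than the counting SD of 6.59 CPM in sgEgfr libraries. Sh2b2 (0.82) and the RAS exchange factor gene Sos1 (0.29) followed by p, and their groups overlapped. Of 10 partners of p75, 6 were positive (median 0.11), beside 46.3% of all genes tested. None was separated, beside 13.4% of all genes tested. Zfp110, whose product binds the p75 tail, was at -0.45, the kinase gene Ripk2 at 0.27 and the co-receptor gene Lingo1 at 0.47. Of 13 genes for cleavage and release of neurotrophins 11 were tested, with 6 positive (median 0.0077), beside 46.3% of all genes tested. The groups of 1 of the 11 were separated, beside 13.4% of all genes tested. Furin, the protease that cleaves proneurotrophins inside the cell, had 17.7, 17.4 and 16.0 CPM in sgEgfr libraries, against 11.2, 13.4 and 11.3 CPM in sgRosa libraries, without overlap (log2 fold change 0.51, SE 0.23; edgeR adjusted p = 0.781). The related convertase gene Pcsk6 was at -0.81 and the granin gene Scg2 at -0.77, both with overlap.

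Of 20 other trophic factor and receptor genes 12 were tested, and 9 were positive (median 0.11), beside 46.3% of all genes tested. Igf1r, the receptor of insulin-like growth factor 1, had 796, 608 and 768 CPM in sgEgfr libraries, against 407, 434 and 314 CPM in sgRosa libraries (log2 fold change 0.91, SE 0.28; edgeR adjusted p = 0.781, DESeq2 adjusted p = 0.0887). Lifr, the receptor of leukaemia inhibitory factor, had 568, 566 and 586 CPM in sgEgfr libraries, against 374, 483 and 277 CPM in sgRosa libraries (0.60, SE 0.29). Nrtn, which encodes the GDNF-family ligand neurturin, had 2.35, 1.56 and 1.95 CPM in sgEgfr libraries, against 4.22, 6.68 and 3.24 CPM in sgRosa libraries (-1.21, SE 0.47). Its counts were few, 11, 7 and 5 in sgEgfr libraries, against 15, 16 and 36 in sgRosa libraries. Igf1r, Lifr and Nrtn, 3 of the 12, were separated between the groups, beside 13.4% of all genes tested, and none was called.

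**Figure D4:**
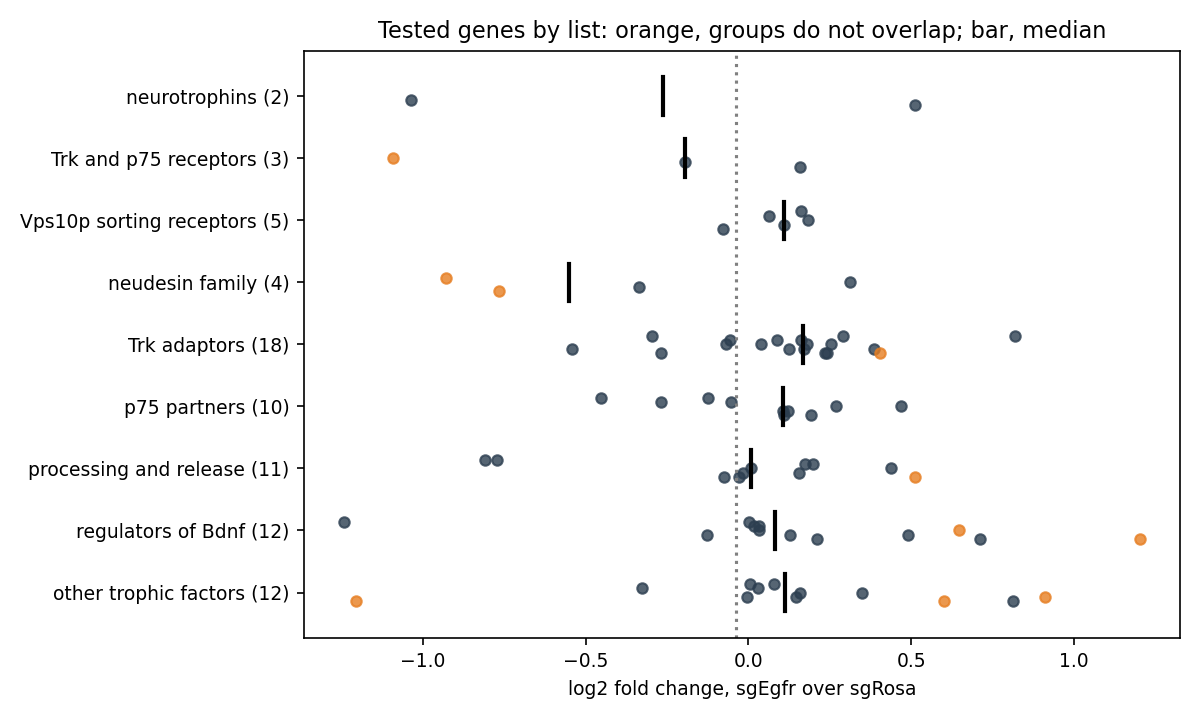
Log2 fold changes of sgEgfr over sgRosa for every tested gene of the 9 lists (number tested in brackets), with list medians as bars and the median of all tested genes as a dotted line. Orange points are genes whose groups do not overlap; among regulators of Bdnf these are Carf (1.20) and Crebbp (0.65), and none of the 77 genes was called.

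**Figure D5:**
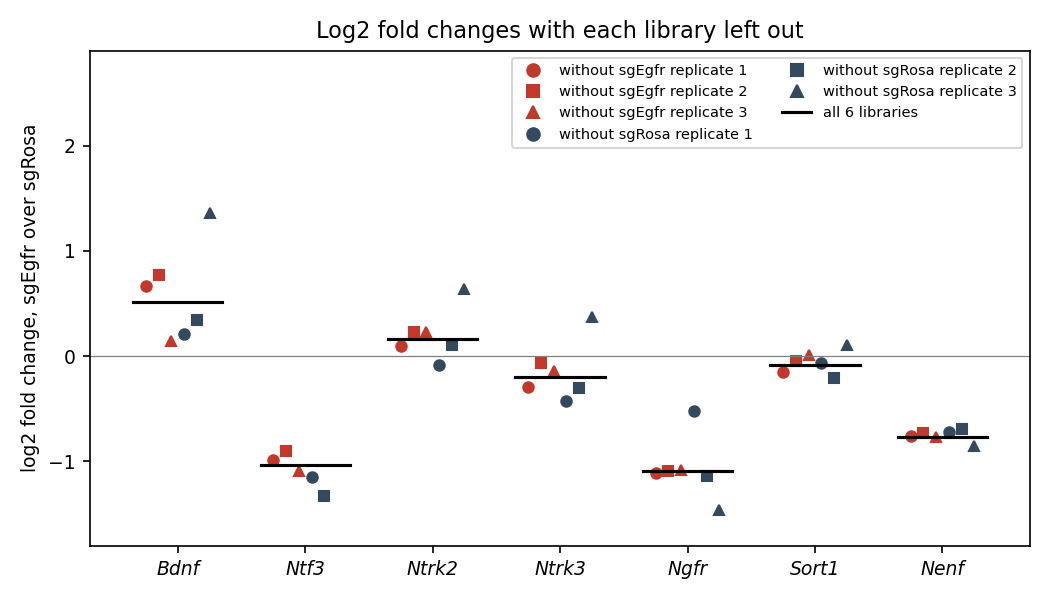
Log2 fold changes of the 7 genes with all 6 libraries (bars) and with each library left out (points, sgEgfr libraries in red and sgRosa libraries in dark blue). Nenf stays between -0.85 and -0.69, whereas Bdnf reaches 1.36 and Ntrk3 reaches 0.37 without sgRosa replicate 3; Ntf3 did not pass the filter without that library.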

How the data were processed

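The authors deposited raw counts of reads per gene, whole numbers with no normalization, as one table per library and one series table. The 6 series columns of these libraries were identical to the separate tables, and 3 further columns matched no sample's labels and were not used. STAR 2.7.5c and featureCounts 2.0.1 with build mm10, fastp 0.23.2, MultiQC 1.11, FastQC 0.11.9 and edgeR 3.42.4 are named in the submitters' processing notes. Annotation and strand setting: not given in the sources used here. Each library began with 5 ng of RNA, per the labels' protocols; counts carry no molecular identifiers, so floors and counting SDs cover counting error only.

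Groups and replicate numbers came from the sample titles, which do not say whether libraries came from separate animals, and p-values may therefore reflect only technical spread. Replicate libraries differed by more than sampling noise (chi-square per degree of freedom at least 10.04). Genes were filtered with filterByExpr (minimum count 10, total 15), scaled by TMM and tested with edgeR 4.0.16 (glmQLFit with robust and without legacy settings; R 4.3.3). SEs came from the fold change and F statistic, and 95% intervals from the t distribution. Log2 CPM used a prior count of 2 and ratios a pseudocount of 0.5. DESeq2 1.42.0 and limma 3.58.1 were alternatives; DESeq2 left 5114 adjusted p undefined, among them those of Ntf3 and Ngfr. On simulated counts of all 13159 genes for this comparison edgeR recovered 4.48% of 2-fold, 70.1% of 4-fold and 93.9% of 8-fold changes. The changes were placed only in genes above a minimum mean count, so the rates do not cover genes with the fewest counts. True calls at these folds were 3, 47 and 62 for edgeR, beside 13 false calls. For DESeq2 they were 10, 59 and 65, beside 39 false calls. Positions and lengths are from GENCODE M21 (GRCm38, named mm10). Bex3 was matched as Ngfrap1.

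The 7 genes, the lists and the tests were chosen with earlier results of these data known. The genes named were the 7, all members of the 4 small lists (2 of them are not reported here), up to 3 per larger list by smallest unadjusted p, and the 3 nearest profiles per gene, and Egfr.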

Additional observations from a re-analysis of the deposited data

How the results depend on the processing

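No result of the 7 genes passed an adjusted p of 0.05 under any alternative, and edgeR and limma-voom called 0 genes in every setting run (381 to 2746 at an unadjusted p under 0.05, the highest without sgRosa replicate 3), while DESeq2 called 33. Nenf, Ngfr and Ntf3 stayed lower in sgEgfr under every alternative that gave a value, at -0.85 to -0.68, -1.46 to -0.46 and -1.46 to -0.44; Ntf3 had none with the stricter filter, without sgRosa replicate 3 or without both choroid libraries. With the pan-neuronal covariate Bdnf turned to -0.12 and Ntrk2 to -0.17, and with the oligodendrocyte covariate Ntrk2 turned to -0.0555. By limma-voom Ntrk3 turned to 0.20 and Sort1 to 0.19. With both libraries that hold choroid plexus RNA left out, an alternative chosen after seeing the data like the legacy fit, Ntrk3 was at 0.28 and Sort1 at 0.0485, and Bdnf at 1.52. With one library left out at a time, Bdnf ranged from 0.14 to 1.36, Nenf from -0.85 to -0.69, Ntf3 from -1.33 to -0.90, Ntrk2 from -0.0887 to 0.64, Ntrk3 from -0.43 to 0.37, Sort1 from -0.21 to 0.10 and Ngfr from -1.46 to -0.52. List medians turned too. That of the cleavage and release genes was -0.0171 with upper-quartile scaling, -0.20 with the pan-neuronal covariate, -0.15 with the oligodendrocyte covariate and -0.16 without sgRosa replicate 1, and 0.32 without sgRosa replicate 3. That of the p75 partners was -0.0014 with the pan-neuronal covariate and -0.0354 without sgRosa replicate 1, and that of the regulators of Bdnf -0.0106 with the pan-neuronal covariate. No log2 ratio changed sign, but with one library left out Bdnf to Ntrk2 ranged from 0.0597 to 0.62, Bdnf to Sort1 from 0.36 to 1.16, Ntrk2 to Ntrk3 from 0.28 to 0.41 and Nenf to Sort1 from -0.96 to -0.47. With the longest coding transcript as length, Ntrk2 moved to 14.8 and Ntrk3 to 1.53 CPM per kilobase. The sources do not say whether same-numbered libraries are paired. Deviations of same-numbered libraries correlated at -0.0311, 0.48 and 0.28, and those of differently numbered libraries at -0.45 to 0.21. So few libraries cannot decide whether they are paired. With a replicate block 0 genes were called and Nenf was at -0.76. The cause of each change was not tested. Depth limits Ntf3 and Ngfr most, at 3 to 75 and 9 to 44 counts per library.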
